A study of Mus musculus with 6 samples.

Results

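NHE1 was silenced in mouse small intestinal organoids by CRISPR-Cas9 under the control of doxycycline (Dox), and the library prepared with Dox (+Dox) was compared with the library of the same line without it (-Dox). The comparison used every cell barcode with at least 1000 genes detected and under 20% of its unique molecular identifiers (UMIs, counted RNA molecules) from mitochondrial genes. This kept 29681 of the 87954 cells that pass these limits in the series, in 2 of its 6 libraries. Organoids were grown from WT small intestinal stocks of adult mice. The CRISPR line was made by infecting WT organoids with a lentivirus that carries a guide to exon 1 of NHE1 and a Dox-inducible Cas9-EGFP, followed by puromycin selection and picking of clones. Both CRISPR libraries carry that insertion, so -Dox organoids were not unmodified WT organoids, and the sources used here do not say whether both libraries came from 1 clone. Cells were collected at day 3. Live cells were sorted for -Dox and live GFP-positive cells for +Dox, at a Dox dose of 2 µg/mL in the methods. The other 4 libraries were WT organoids with DMSO (-EIPA, n = 2) or with 5 µM EIPA (+EIPA, n = 2), an amiloride analogue that inhibits NHE1, and serve here for reference.

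NHE1 is the ubiquitous plasma membrane exchanger that moves protons out of the cell against the entry of sodium and so raises intracellular pH. The small intestinal epithelium is renewed from LGR5-positive stem cells at the crypt base. Their progeny become absorptive enterocytes, which digest and take up nutrients at the brush border, or secretory cells, namely Paneth cells with antimicrobial granules, goblet cells with mucus, enteroendocrine cells with hormones and tuft cells. The question of the comparison was how the expression of genes across these lineages differs when NHE1 is silenced.

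Levels are given as CPM, the UMIs of a gene in each 1000000 UMIs of all kept cells of a library. With 1 library a side there is no replicate, so no test was possible, and differences are given as ratios of +Dox to -Dox with a 95% exact interval for counting error only. That interval does not include the spread between cultures. A gene was called higher or lower by its log2 ratio after 5 CPM was added to both sides, and was tested in this sense if it reached 10 CPM in either library. A gene under 10 CPM in 1 library was tested only through the library where it was higher, so its direction was set by that minimum. Dox itself, Cas9-EGFP expression, sorting for GFP and NHE1 silencing all differed between both libraries and cannot be told apart. Differences in a summed level also cannot tell more cells of a type from more RNA per cell.

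The -Dox library held 17598 kept cells with 232674223 UMIs and a median of 11952 UMIs per cell, and the +Dox library 12083 cells with 236696262 UMIs and a median of 17020. Mitochondrial genes took a median of 4.31% and 5.16% of UMIs per cell. The WT libraries held between 12606 and 18211 kept cells and between 161670015 and 239368573 UMIs. The 2 CRISPR libraries shared 56 cell barcodes, which was 0.318% of the -Dox and 0.463% of the +Dox cells. All 8 genes of the pan-epithelial list were within 1.5-fold, with Epcam, the epithelial adhesion molecule, at 1699 CPM in -Dox and 1588 CPM in +Dox. Markers of immune cells summed to 4.48 CPM and 4.26 CPM, with Adgre1 and Nkg7 at 0 in both libraries. Markers of mesenchymal, endothelial and neural cells summed to 3.42 CPM and 6.86 CPM, with Col1a2 and Cdh5 at 0 in both.

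Of 7852 genes tested, 113 (1.44%) were higher in +Dox by 2-fold or more and 9 (0.115%) were lower. By 1.5-fold, 308 (3.92%) were higher and 65 (0.828%) were lower, and 7479 (95.2%) lay within that fold. Of these 308 genes 91 were tested through their +Dox level alone, and of the 65 lower genes 12 through their -Dox level alone. The counts moved with the settings, to 139 higher by 1.5-fold with a minimum of 50 CPM and to 18 lower by 2-fold and 113 lower by 1.5-fold with 1 CPM added in place of 5. The median log2 ratio over all tested genes was -0.07. On the 20 chromosomes with at least 100 tested genes, the median log2 ratio lay between -0.10 and -0.04. Genes that were higher therefore outnumbered those that were lower, and most genes differed little. As a measure of how far libraries of 1 group can lie apart, the 2 WT -EIPA libraries were compared by the same rule, and of 7618 genes 37 (0.486%) were higher and 12 (0.158%) lower by 2-fold in replicate 2, with 95 (1.25%) and 94 (1.23%) by 1.5-fold. The methods give 2 separate preparations for the WT libraries and 1 for the CRISPR libraries. Differences between the WT -EIPA libraries, here and in the lists below, thus include a difference between preparations. The plot of levels shows the spread of genes in both CRISPR libraries.

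**Figure D1:**
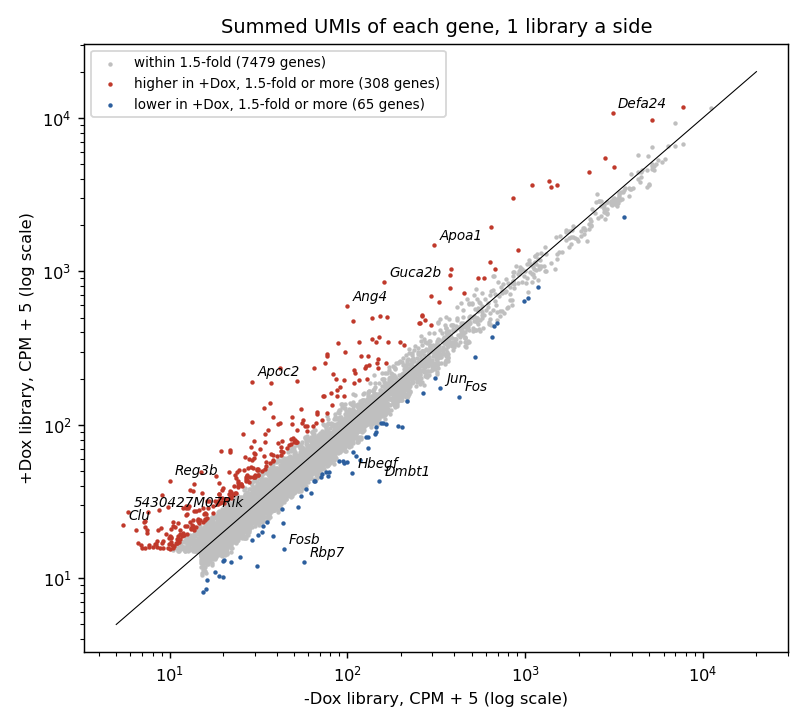
Level of each tested gene in the CRISPR library without Dox (x axis, CPM plus 5, log scale) and with Dox (y axis, CPM plus 5, log scale). The line marks equal levels. The 308 genes higher in +Dox by 1.5-fold (red) outnumber the 65 lower genes (blue), and most of the 7852 genes lie near the line.

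The 15 genes with the highest and the 15 with the lowest log2 ratio are described first, among genes with at least 20 CPM in either library and leaving out gene models (names such as Gm with a number or ending in Rik). Among the models left out, 5430427M07Rik, given further below, had a log2 ratio of 2.21, above that of Apoc3 at 2.14. The last gene inside the upper 15 was Leap2 with a log2 ratio of 1.86 and the first outside was Apoa4 with 1.84. The last inside the lower 15 was Tcim with -0.80 and the first outside was Acat2 with -0.79. Since these genes were chosen by the ratio, their differences are a description.

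Genes for the packaging and export of dietary fat were among the upper 15. Apoc2, the apolipoprotein that activates lipoprotein lipase, was at 24.0 CPM in -Dox and at 186 CPM in +Dox, a 7.75-fold difference (95% interval 7.53 to 7.97). In the WT libraries Apoc2 was at 74.9 and 34.3 CPM without EIPA and at 228 and 286 CPM with EIPA. The -Dox library thus held the lowest Apoc2 level of the 6 libraries, and the +Dox level lay between the WT libraries without and with EIPA. Apoa1, the main protein of high-density lipoprotein, was at 303 CPM in -Dox and 1471 CPM in +Dox (4.85-fold, 4.81 to 4.89), against 594 and 273 CPM in -EIPA and 1586 and 1596 CPM in +EIPA. Apoc3, an inhibitor of lipoprotein lipase, was at 102 and 467 CPM (4.59-fold, 4.52 to 4.65), against 101 and 40.3 CPM in -EIPA and 255 and 288 CPM in +EIPA. Apoa1 (chr9:46228580-46230466, plus strand) and Apoc3 (chr9:46232933-46235636, minus strand) are neighbours, and Apoa4 (chr9:46240696-46243459, plus strand), the next gene along, was at 133 CPM in -Dox and 490 CPM in +Dox (3.69-fold). Apoc2 lies elsewhere (chr7:19671579-19677941, minus strand). Over the list of apolipoproteins and lipoprotein assembly genes, 11 of 15 were tested, 8 were higher by 1.5-fold and 0 lower, with a median log2 ratio of 0.97 and a summed level of 1102 CPM in -Dox and 3521 CPM in +Dox. The lowest ratio among tested members was that of Sar1b, a GTPase of chylomicron transport, at 0.20.

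Other genes among the upper 15 act in signaling, digestion and detoxification. Guca2b encodes uroguanylin, a peptide secreted into the gut lumen that acts on guanylate cyclase C, and was at 156 CPM in -Dox and 845 CPM in +Dox (5.43-fold, 5.37 to 5.49). Guca2b was at 173 and 104 CPM in -EIPA and at 494 and 523 CPM in +EIPA, so that +Dox was the highest of the 6 libraries. Lct, the lactase of the brush border, was at 4.04 and 29.9 CPM (7.40-fold, 6.92 to 7.93), while the 4 WT libraries lay between 0.965 and 7.75 CPM. Cyp3a11 and Cyp3a13, monooxygenases of drug and steroid metabolism with near-identical relatives that may share reads, were at 29.1 and 71.3 CPM in -Dox and at 124 and 282 CPM in +Dox. Tm4sf4, a 4-span membrane protein, was at 31.9 and 182 CPM (5.71-fold, 5.57 to 5.85), with 24.4 and 28.0 CPM in -EIPA and 94.5 and 141 CPM in +EIPA. Prxl2a, a peroxiredoxin-like protein, was at 36.7 CPM in -Dox and 229.6 CPM in +Dox (6.26-fold, 6.12 to 6.41). Leap2, a liver and gut peptide that opposes ghrelin at its receptor, was at 59.5 and 229 CPM.

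Promoters of Apoc2 and Guca2b are shown because these genes were far apart between the libraries and both hold the letters CAAAG, a core of the site of HNF4 factors. The windows are the 250 bases before the RefSeq start in GRCm38.p6, 5′ to 3′ on the strand of the gene, at chr7:19677942-19678191 (minus strand) for Apoc2 and chr4:119658946-119659195 (minus strand) for Guca2b. Capitals mark CAAAG on either strand, read as CTTTG on the other. The letters searched were chosen after the sequences had been seen.
Apoc2: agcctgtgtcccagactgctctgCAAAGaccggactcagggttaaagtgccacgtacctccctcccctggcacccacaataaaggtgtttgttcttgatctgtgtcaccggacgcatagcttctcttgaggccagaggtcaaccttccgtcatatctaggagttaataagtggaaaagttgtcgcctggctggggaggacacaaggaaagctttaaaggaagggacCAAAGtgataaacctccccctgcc
Guca2b: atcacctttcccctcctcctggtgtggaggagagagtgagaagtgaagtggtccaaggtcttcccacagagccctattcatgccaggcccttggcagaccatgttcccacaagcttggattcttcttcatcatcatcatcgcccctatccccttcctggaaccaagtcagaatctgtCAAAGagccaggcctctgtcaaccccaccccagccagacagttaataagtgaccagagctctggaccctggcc
CAAAG was in 10 of the 13 upper genes with a window (76.9%), beside 52.2% of the windows of 27025 genes. A match is a description of the letters and not a bound site.

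Antimicrobial and secretory products made up the rest of the upper 15. Ang4, an angiogenin secreted by Paneth cells, was at 94.3 CPM in -Dox and 588 CPM in +Dox (6.24-fold, 6.15 to 6.33), with 112 and 144 CPM in -EIPA and 149 and 317 CPM in +EIPA. Mmp7, the protease that activates α-defensins in mouse Paneth cells, was at 83.0 and 336 CPM (4.05-fold, 3.99 to 4.11), with 94.9 and 115 CPM in -EIPA and 149 and 244 CPM in +EIPA. For Ang4 and Mmp7 the +Dox library was the highest of the 6. The C-type lectins Reg3b, Reg3a and Reg4 were at 4.98, 71.3 and 46.8 CPM in -Dox and at 38.3, 276 and 187 CPM in +Dox. Reg4 was at 187 and 195 CPM in -EIPA and at 327 and 413 CPM in +EIPA, so for Reg4 the +Dox level was close to that of WT organoids without EIPA and the -Dox level was below all 4 WT libraries. Of 7 Reg family genes 5 were tested and 4 were higher by 1.5-fold, 2 of them tested through their +Dox level alone, with a median log2 ratio of 1.88. Ang4 and the Reg3 genes have near-identical relatives that may share reads, so values of single members are uncertain.

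For all 15 of these genes both +EIPA libraries also lay above both -EIPA libraries, beside 11.5% of all tested genes. The +Dox level was above the range of the 4 WT libraries for 11 genes and within it for 4. The -Dox level was below the WT range for 5 and within it for 10. The plot of named genes across the 6 libraries shows these positions.

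**Figure D2:**
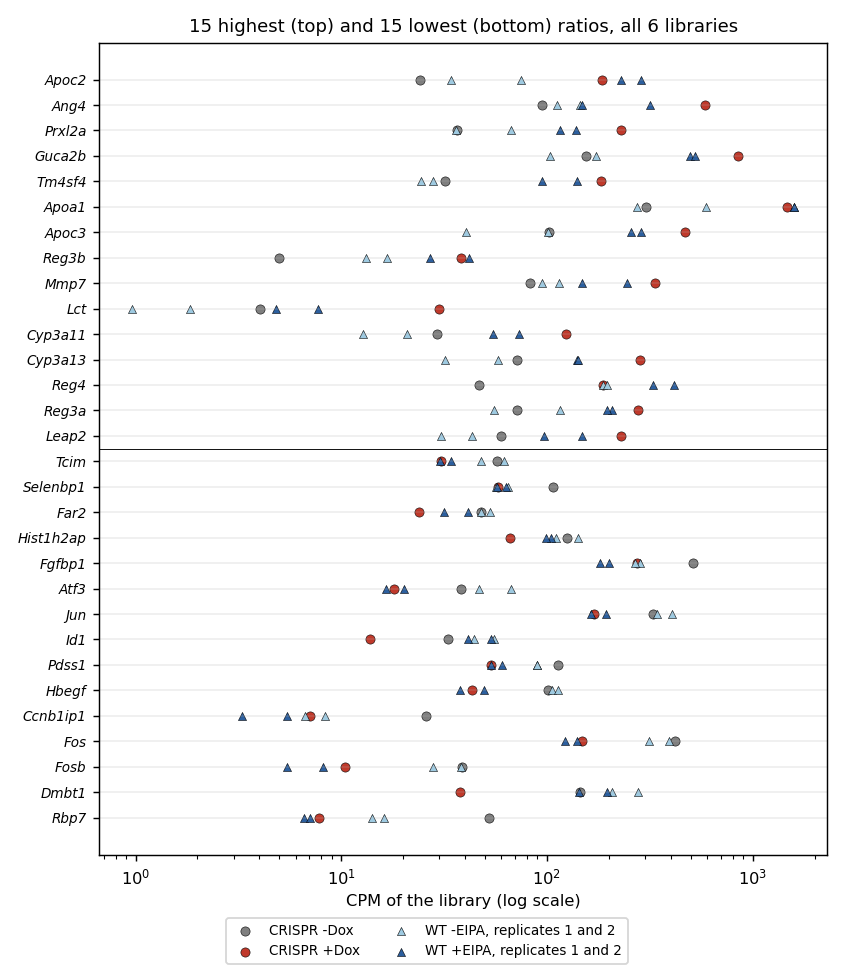
Levels (CPM, log scale) of the 15 genes with the highest and the 15 with the lowest ratio of +Dox to -Dox in each of the 6 libraries, with 1 point per library. For the upper genes, such as Apoc2 at 24.0 CPM in -Dox and 186 CPM in +Dox, the +EIPA points lie above the -EIPA points.

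Immediate early genes, many of which encode AP-1 transcription factors and are switched on within minutes by growth factor signals or by cell dissociation, were among the lower 15. Fos, a subunit of AP-1, was at 418 CPM in -Dox and 148 CPM in +Dox, 2.83-fold lower (95% interval 2.80 to 2.87). Fos was at 313 and 391 CPM in -EIPA and at 122 and 139 CPM in +EIPA. Its paralog Fosb was at 38.8 and 10.4 CPM in the CRISPR libraries (3.73-fold lower, 3.56 to 3.90), at 38.3 and 27.8 CPM in -EIPA and at 8.20 and 5.44 CPM in +EIPA. For both genes the -Dox level was above both WT libraries without EIPA and the +Dox level was below both of them. Jun, the partner subunit of Fos, was at 328 CPM in -Dox and 169 CPM in +Dox (1.95-fold lower, 1.92 to 1.97), against 342 and 404 CPM in -EIPA and 193 and 163 CPM in +EIPA. Atf3, a stress-induced bZIP factor, was at 38.4 and 18.0 CPM, against 46.8 and 66.8 CPM in -EIPA and 20.1 and 16.6 CPM in +EIPA. Hbegf, a ligand of the EGF receptor, was at 101 and 43.3 CPM (2.33-fold lower, 2.28 to 2.39), against 106 and 114 CPM in -EIPA and 49.3 and 37.8 CPM in +EIPA.

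Of the 19 AP-1 and immediate early genes listed, 15 were tested. By 1.5-fold, 5 were lower, namely Fosb, Fos, Jun, Atf3 and Egr1, and 0 were higher. The median log2 ratio of the list was -0.42 in +Dox against -0.07 over all tested genes, and -0.36 and -0.70 in the 2 +EIPA libraries against the -EIPA libraries. Klf4, a zinc finger factor, had the highest ratio among tested members at 0.06. All libraries were dissociated with the same enzyme by the methods, and the part of dissociation in these levels was not tested.

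Promoters of Fos, Fosb and Atf3 are shown because these genes were lower in +Dox and hold TGACG, part of the cyclic AMP response element that CREB and ATF factors bind. The windows are again the 250 bases before the RefSeq start in GRCm38.p6 on the strand of the gene, at chr12:85473640-85473889 (plus strand) for Fos, chr7:19310046-19310295 (minus strand) for Fosb and chr1:191183334-191183583 (minus strand) for Atf3. Capitals mark TGACG on either strand, read as CGTCA on the other, and the TATAAA box.
Fos: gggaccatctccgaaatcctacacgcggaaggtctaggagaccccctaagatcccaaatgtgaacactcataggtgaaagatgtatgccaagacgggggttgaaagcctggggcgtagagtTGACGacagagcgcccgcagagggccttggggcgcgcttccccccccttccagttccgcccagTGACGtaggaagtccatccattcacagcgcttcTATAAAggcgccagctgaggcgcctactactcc
Fosb: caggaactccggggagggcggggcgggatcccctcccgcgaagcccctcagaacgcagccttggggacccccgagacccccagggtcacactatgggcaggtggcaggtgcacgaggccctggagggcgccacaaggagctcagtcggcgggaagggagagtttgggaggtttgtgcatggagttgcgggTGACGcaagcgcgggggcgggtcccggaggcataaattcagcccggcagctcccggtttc
Atf3: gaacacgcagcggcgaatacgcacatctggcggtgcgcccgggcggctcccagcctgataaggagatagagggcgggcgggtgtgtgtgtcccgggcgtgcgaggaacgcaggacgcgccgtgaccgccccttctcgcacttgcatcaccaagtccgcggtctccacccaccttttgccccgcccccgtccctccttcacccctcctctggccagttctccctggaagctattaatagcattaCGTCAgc
TGACG was in 6 of the 13 tested immediate early genes with a window (46.2%), beside 19.8% of all windows. The others were Dusp1, Junb and Klf4. The same letters were in 7 of the 15 tested cholesterol genes with a window (46.7%), so this share is not particular to immediate early genes.

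The gene with the lowest ratio was Rbp7, a cellular retinoid-binding protein, at 52.3 CPM in -Dox and 7.78 CPM in +Dox, 6.72-fold lower (6.40 to 7.06). Rbp7 was at 16.2 and 14.1 CPM in -EIPA and at 6.56 and 7.06 CPM in +EIPA, so that the -Dox library stood above all 5 others. Dmbt1, a mucosal scavenger glycoprotein, was at 145 and 37.9 CPM (3.84-fold lower, 3.75 to 3.93), at 278 and 207 CPM in -EIPA and at 195 and 143 CPM in +EIPA, so that here the +Dox library stood below all 5 others. Ccnb1ip1, a ubiquitin ligase that acts on cyclin B, was at 25.8 and 7.02 CPM (3.68-fold lower, 3.48 to 3.88), while the 4 WT libraries lay between 3.28 and 8.30 CPM. For Rbp7 and Ccnb1ip1 the difference thus came with a -Dox level above the WT range, and for Dmbt1 with a +Dox level below it. Id1, an inhibitor of bHLH factors and a target of BMP signaling, was at 32.9 and 13.8 CPM, with 44.1 and 55.3 CPM in -EIPA and 41.5 and 53.7 CPM in +EIPA, whose ranges overlap. The other lower genes were Pdss1, Fgfbp1, the histone gene Hist1h2ap, Far2, Selenbp1 and Tcim, with log2 ratios from -1.01 to -0.80.

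For 13 of the 15 lower genes both +EIPA libraries lay below both -EIPA libraries, beside 44.3% of all tested genes. The exceptions were Id1 and Selenbp1. The -Dox level was above the WT range for 7 genes, within it for 7 and below it for 1, and the +Dox level was below that range for 4 and within it for 11.

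The marker lists of enterocytes, Paneth cells and goblet cells were higher in +Dox, while tuft cell markers were not. List counts over all cells, here and below, stand beside 3.92% of all tested genes higher and 0.828% lower by 1.5-fold. Counts of 1 or 2 members are given as description only. Of 15 tested enterocyte markers of 16 listed, 13 were higher by 1.5-fold and 0 lower, with a median log2 ratio of 1.11, and their summed level was 10294 CPM in -Dox and 21710 CPM in +Dox against 4236 to 13511 CPM in the WT libraries. Of the 13, 1 was tested through its +Dox level alone. Between the 2 WT -EIPA libraries the median of this list was -0.88 and that of the apolipoprotein list -0.80, so libraries of 1 group differed in these genes by nearly as much. Fabp1, the abundant fatty acid-binding protein, was at 5191 and 9651 CPM, and Fabp2, its intestinal relative, had the lowest ratio among tested members at 508 and 701 CPM. Among genes of sugar uptake, chosen after their values were seen, the fructose and glucose transporters Slc2a2, Slc5a1 and Slc2a5 were at 24.0, 374 and 36.8 CPM in -Dox and at 98.6, 946 and 98.0 CPM in +Dox. Likewise Sis, the sucrase-isomaltase of the brush border, was at 633 and 1931 CPM.

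Of 9 tested Paneth markers of 11 listed, 9 were higher by 1.5-fold, with a median log2 ratio of 1.73 and a summed level of 6772 CPM in -Dox and 22768 CPM in +Dox. The WT libraries ranged from 7093 to 24501 CPM. Defa24, the most abundant α-defensin of the list, was at 3098 and 10739 CPM in the CRISPR libraries, 4157 and 6161 CPM in -EIPA and 5954 and 13258 CPM in +EIPA. The -Dox library was the lowest of the 6 for Defa24, and +Dox lay between the 2 +EIPA libraries. Defa genes are near-identical copies, and values of single members are uncertain. For 4 of the 9 markers both +EIPA libraries lay above both -EIPA libraries, beside 11.5% of all tested genes. Within each WT replicate number the median log2 ratio of +EIPA to -EIPA over these markers was 0.52 and 1.10, and between the 2 -EIPA libraries it was 0.48. Of 8 goblet markers 7 were higher by 1.5-fold and 0 lower, with a median log2 ratio of 1.26 and sums of 4121 and 9622 CPM. Spink4, a protease inhibitor of goblet cells, was at 1501 and 3663 CPM, Zg16, a lectin of the mucus, at 92.5 and 291 CPM, and Agr2, a disulfide isomerase needed for mucin assembly, at 464 and 652 CPM.

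Enteroendocrine and tuft cells were scarce in both CRISPR libraries. Enteroendocrine markers summed to 63.1 CPM in -Dox and 177 CPM in +Dox, beside 1167 to 2041 CPM in the WT libraries. Of the 4 tested of 14, 3 were higher by 1.5-fold and 0 lower, and 2 of these 3, Chga and Neurog3, were tested through their +Dox level alone. Chgb, a chromogranin of hormone granules, was at 33.0 and 108 CPM (3.28-fold, 3.19 to 3.36), below every WT library in both cases. Its log2 ratio, 1.57 here, ranged from 1.40 without called doublets to 2.76 with cells thinned to 5000 UMIs, and the median of the list from 0.97 to 1.91. The sizes of both thus moved with the processing and their direction did not. Ghrl, the hormone ghrelin, was at 10.4 and 14.0 CPM. Tuft cell markers summed to 9.70 and 8.28 CPM, against 33.3 to 40.9 CPM in WT, and 0 of 9 reached the minimum. The low enteroendocrine and tuft levels were shared by both CRISPR libraries and set them apart from WT organoids.

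**Figure D3:**
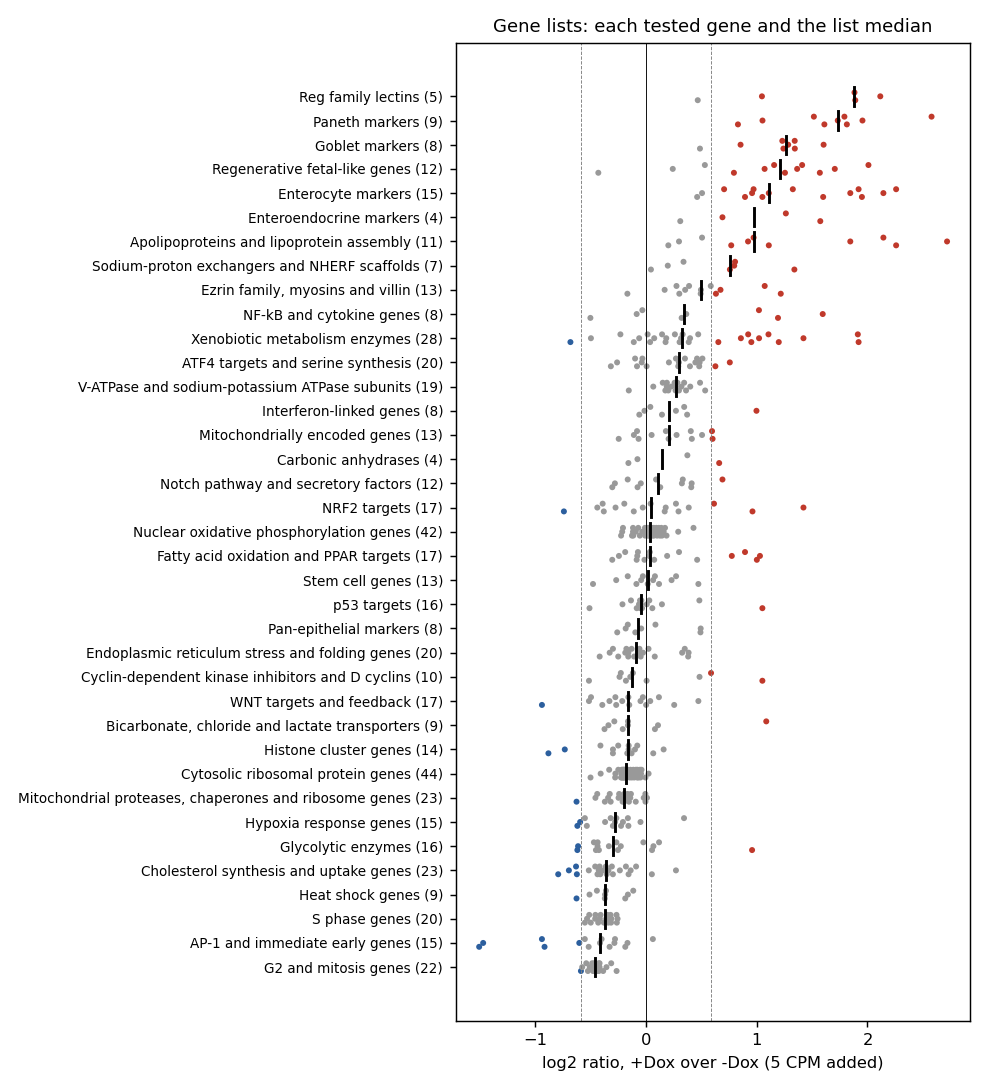
Log2 ratio of +Dox to -Dox (x axis, 5 CPM added) of the tested members of each gene list (y axis), with 1 point per member, a bar at the list median, and dashed lines at 1.5-fold, for lists with at least 4 tested genes. Paneth, Reg family, goblet, regenerative and enterocyte lists lie highest, with medians from 1.11 to 1.88, and S phase and G2 and mitosis genes lie below 0, at -0.37 and -0.46.

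Stem cell genes were close in both libraries over all cells. Of 13 tested of 16 listed, 0 were past 1.5-fold and the median log2 ratio was 0.02. Olfm4, an abundant glycoprotein of crypt base columnar cells, was at 1754 and 1834 CPM, Ascl2, the WNT-responsive master factor of stem cells, at 17.7 and 26.6 CPM, and Aqp4, a water channel, at 48.0 and 33.0 CPM. Of 17 WNT targets and feedback genes 1 was lower by 1.5-fold, Jun, and 0 were higher, with a median of -0.16. Of 12 genes of Notch signaling and secretory fate 1 was higher, namely Neurog3, the enteroendocrine fate factor, at 8.60 and 17.0 CPM. It was tested through its +Dox level alone, so its direction was set by the minimum. Hes1, the Notch target that represses secretory fate, was at 143 and 115 CPM. Klf5, a proliferation factor of the crypt, was at 365 and 257 CPM.

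Cell cycle genes were lower by small amounts that shared a sign. The 20 S phase genes had log2 ratios from -0.55 to -0.26 with a median of -0.37, and 0 were past 1.5-fold. Mcm3, a subunit of the replicative helicase, had the lowest at 59.8 and 39.2 CPM. The 22 G2 and mitosis genes had log2 ratios from -0.59 to -0.27 with a median of -0.46, and 1, Hmmr, was past 1.5-fold. The log2 ratio of Hmmr ranged from -0.67 to -0.56 with the processing, so it was not past 1.5-fold under every alternative. Hmmr, a spindle protein, was at 67.2 CPM in -Dox and 43.0 CPM in +Dox, and Top2a, the topoisomerase of dividing cells, at 276 and 205 CPM. Among 10 CDK inhibitors and D cyclins 2 were higher and 0 lower. Cdkn1a, the p21 inhibitor induced by p53 and by cell cycle exit, was at 163 CPM in -Dox and 344 CPM in +Dox (2.10-fold, 2.08 to 2.13), with 138 and 101 CPM in -EIPA and 187 and 181 CPM in +EIPA, so that +Dox was the highest of the 6 libraries. Of the 16 tested p53 targets, Cdkn1a was the 1 past 1.5-fold, and Pmaip1, a proapoptotic target, was the lowest at 26.6 and 17.2 CPM.

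Promoters of Top2a and Hmmr are shown because the mitotic genes differed together and both of these promoters hold repeated CCAAT boxes, which NF-Y binds. The windows are the 250 bases before the RefSeq start in GRCm38.p6 on the strand of the gene, at chr11:99024190-99024439 (minus strand) for Top2a and chr11:40733438-40733687 (minus strand) for Hmmr. Capitals mark CCAAT, read as ATTGG on the other strand, and TTTGAA, the cell cycle homology region, read as TTCAAA.
Top2a: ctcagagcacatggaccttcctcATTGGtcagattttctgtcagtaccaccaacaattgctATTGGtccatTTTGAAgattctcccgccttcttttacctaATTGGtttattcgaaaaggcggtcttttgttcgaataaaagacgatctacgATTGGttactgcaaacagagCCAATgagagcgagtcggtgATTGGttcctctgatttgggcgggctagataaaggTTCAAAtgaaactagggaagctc
Hmmr: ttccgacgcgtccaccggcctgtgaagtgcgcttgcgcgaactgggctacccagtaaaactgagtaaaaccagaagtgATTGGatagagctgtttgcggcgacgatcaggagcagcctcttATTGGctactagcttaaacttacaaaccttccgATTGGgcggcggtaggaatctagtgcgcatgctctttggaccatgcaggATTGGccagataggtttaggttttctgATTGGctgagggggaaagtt
CCAAT was in 18 of the 19 tested G2 and mitosis genes with a window (94.7%), beside 37.5% of all windows, and TTTGAA in 8 of them (42.1%) beside 18.3%. CCAAT was also in 14 of the 15 tested cholesterol genes with a window (93.3%), and TTTGAA in 5 of the 13 upper genes with a window (38.5%).

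Regenerative genes mark the fetal-like state of injured epithelium. Of 12 tested of 22 listed, 9 were higher by 1.5-fold and 0 lower, with a median log2 ratio of 1.21, beside 1.02 and 1.25 in the 2 +EIPA libraries and 0.32 between the 2 -EIPA libraries. Of the 9, 6 were tested through their +Dox level alone, Clu among them, so their direction was set by the minimum, and the other 3 were not. Clu encodes clusterin, a secreted chaperone and the marker of revival stem cells, and lies at chr14:65968483-65981547 (plus strand). Clu was at 0.486 CPM in -Dox and 17.1 CPM in +Dox (35.2-fold, 29.2 to 42.8), at 5.55 and 44.3 CPM in -EIPA and at 16.0 and 116 CPM in +EIPA. The -Dox library had the lowest Clu level of the 6, and +Dox lay within the WT range. S100a6, a calcium-binding protein, was at 132 and 360 CPM in the CRISPR libraries, 266 and 908 CPM in -EIPA and 617 and 1931 CPM in +EIPA. Ccn1, a secreted matricellular target of YAP, had the lowest ratio among tested members, at 19.9 and 13.4 CPM. Members chosen after their values were seen were Ly6a, Anxa3 and Sprr1a, at 1.86, 2.27 and 2.14 CPM in -Dox and at 11.4, 16.6 and 18.3 CPM in +Dox.

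Among genes of pH and ion transport, 7 of 14 listed exchangers and scaffolds were tested, and 4 were higher by 1.5-fold and 0 lower over all cells, with a median of 0.76. Of these 4, Pdzk1 and Slc9a3 were tested through their +Dox level alone. In the classes of cells defined further below, 3 of 7 were higher among enterocyte-gated cells (median 0.56), 0 of 3 among Paneth- or goblet-gated cells (0.13) and 0 of 4 among cells under the gates (0.07). Pdzk1, a scaffold that anchors transporters at the brush border, was at 1.65 CPM in -Dox and 11.9 CPM in +Dox (7.16-fold, 6.44 to 7.99), and Slc9a3r1, the scaffold NHERF1, at 62.7 and 113 CPM. Slc9a3, the apical exchanger NHE3 of enterocytes, was at 6.12 and 13.8 CPM and was chosen after its values were seen. Slc9a8, an exchanger of the apical membrane and Golgi, had the lowest ratio among tested members at 0.04. Of 9 bicarbonate, chloride and lactate transporters 1 was higher, Slc26a6, an apical chloride and bicarbonate exchanger, at 25.3 and 59.2 CPM. The lowest was Slc16a3, the lactate exporter MCT4, with a log2 ratio of -0.38. Of 4 carbonic anhydrase genes 1 was higher, Car8, an inactive family member, at 42.0 and 69.2 CPM. Of 19 subunits of the V-ATPase and sodium-potassium ATPase, 0 were past 1.5-fold, with a median of 0.27. Of 13 ezrin family, myosin and villin genes 4 were higher and 0 lower, with Cdhr2, a cadherin that links microvilli, at 21.4 and 56.3 CPM and Ezr, which links actin to the membrane, at 151 and 194 CPM.

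Stress and metabolic lists are given next over all cells, and several of them differed more within classes of cells, as given below. Of 20 ATF4 targets 2 were higher by 1.5-fold and 0 lower, with a median of 0.29, and Atf5, a factor translated under amino acid stress, was at 37.3 and 66.5 CPM. Between the 2 -EIPA libraries the median of ATF4 targets was -0.37, so libraries of 1 group differed in this list by more. Of 20 endoplasmic reticulum stress genes 0 were past 1.5-fold, with a median of -0.09. Of 9 heat shock genes 1 was lower, Hspd1, the mitochondrial chaperonin, at 985 and 636 CPM, and the list median was -0.37 with all 9 log2 ratios below 0. The heat shock median thus matched that of the S phase genes, while ATF4 targets lay above the median of all genes and endoplasmic reticulum stress genes near it. The 13 mitochondrially encoded genes summed to 46782 and 56778 CPM, 2 of them were higher by 1.5-fold, and the 42 nuclear genes of oxidative phosphorylation had a median of 0.04 with 0 past 1.5-fold. Of 23 genes of mitochondrial proteases, chaperones and ribosomes 1 was lower, again Hspd1, with a median of -0.20. Of 44 ribosomal protein genes 0 were past it, with a median of -0.18, and of 14 histone genes, which share reads with near-identical copies, 2 were lower, Hist1h2ap and Hist1h2ac. Of these 2, 1 was tested through its -Dox level alone. Of 16 glycolytic genes 1 was higher and 2 were lower, with a median of -0.30, and Pdk1, a kinase that restrains pyruvate oxidation, had a log2 ratio of -0.62. Of 15 hypoxia genes 0 were higher and 2 lower, with a median of -0.28. With EIPA the medians of the 2 replicates were -0.01 and 0.25 for glycolytic genes, -0.02 and 0.22 for hypoxia genes and -0.09 and -0.02 for mitochondrially encoded genes, whose median with Dox was 0.20. Between the 2 -EIPA libraries the same medians were -0.55, -0.33 and -0.62, so libraries of 1 group differed in these lists by more than the CRISPR libraries did. Of 17 antioxidant NRF2 targets 3 were higher and 1 lower. Among them Gsta1, a glutathione transferase, was at 379 and 1025 CPM and Gsr, the glutathione reductase, at 262 and 155 CPM. Fth1, the ferritin heavy chain, was at 2803 and 5463 CPM.

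Lipid genes went different ways. Of 23 cholesterol synthesis and uptake genes 4 were lower by 1.5-fold, among them Acat2, Lss and Idi1, and 0 were higher, with a median of -0.36. Over all tested genes 0.828% were lower and 3.92% higher by that fold. Acat2, the cytosolic thiolase at the head of the pathway, was at 94.8 CPM in -Dox and 52.6 CPM in +Dox. Of 17 genes of fatty acid oxidation and PPAR signaling 4 were higher, 1 of them tested through its +Dox level alone, and 0 lower, with a median of 0.03. Creb3l3, a membrane-bound factor of lipid metabolism in liver and gut, was at 24.7 and 55.6 CPM. Of 28 tested xenobiotic metabolism genes of 31 listed, 10 were higher and 1 was lower over all cells, with a median of 0.32. Between the 2 -EIPA libraries the medians of the cholesterol and xenobiotic lists were -0.28 and -0.35. Libraries of 1 group thus differed in these lists by similar amounts. The xenobiotic list turned direction among Paneth- or goblet-gated cells and cells under the gates, but not among enterocyte-gated cells, as given below. The lower member was Gstp1, a glutathione transferase, at 49.9 and 29.2 CPM.

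Immune-related genes of the epithelium were mostly low. Of 33 interferon-linked genes 8 were tested and 1 was higher, Ifi27, at 5.75 and 16.5 CPM. MHC class II genes summed to 2.86 and 2.01 CPM with 0 of 7 tested. Of 24 NF-kB and cytokine genes 8 were tested and 3 were higher, 2 of them tested through their +Dox level alone, as was Ifi27. Cxcl16, a membrane-bound chemokine, was at 8.70 CPM in -Dox and 36.4 CPM in +Dox (4.19-fold, 3.99 to 4.39). Pigr, the receptor that carries immunoglobulin A into the lumen, was at 716 and 504 CPM.

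An antisense RNA, chosen after its values were seen, set the +Dox library apart. 5430427M07Rik (ENSMUSG00000085004, chr12:91045848-91079907, plus strand) was counted with 191 UMIs in -Dox and 5177 UMIs in +Dox, or 0.821 and 21.9 CPM (26.6-fold, 23.1 to 31.0). The 4 WT libraries lay between 0.138 and 0.546 CPM, with and without EIPA. It lies within the span of Cep128 (chr12:90998492-91384409, minus strand), which was at 4.43 and 3.95 CPM. The nearby Gtf2a1 was at 23.3 and 22.5 CPM. Within the cells over the enterocyte gate described below, 5430427M07Rik was at 2.32 and 58.6 CPM (25.2-fold, 20.9 to 30.8). 

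In all, 36 tested genes (0.458%) reached in +Dox at least 2 times the highest level of the other 5 libraries, and 4 (0.0509%) at most 1/2 of the lowest, namely Id1, Dmbt1, Phlda2 and AY761184. Many of the 36, such as Lct (4.04 CPM in -Dox) and Cd36 (3.29 CPM), were tested through +Dox alone, so their direction was set by the minimum. Phlda2 and AY761184, at 8.85 and 3.515 CPM in +Dox, were likewise tested through -Dox alone. AY761184 was at 10.96 CPM in -Dox and 118.5 to 225.2 CPM in the WT libraries, so both CRISPR libraries lay far below WT. The following members of the 36 were picked after their values were seen. No list of them was fixed, and they do not stand for the 36 as a whole. Slc2a2, the basolateral exit for glucose and fructose, was at 24.0 CPM in -Dox, 98.6 CPM in +Dox, 13.5 and 5.74 CPM in -EIPA and 30.9 and 31.1 CPM in +EIPA (4.11-fold between the CRISPR libraries, 3.99 to 4.23). Sis was at 356 and 162 CPM in -EIPA and at 581 and 504 CPM in +EIPA, below both CRISPR libraries. Slc5a1, the sodium-glucose cotransporter, was at 127 and 64.8 CPM in -EIPA and 196 and 187 CPM in +EIPA, and Slc2a5, the fructose transporter, at 12.4 and 6.46 CPM and 18.1 and 14.8 CPM. Khk, the kinase that starts fructose breakdown, was at 373 CPM in -Dox and 779 CPM in +Dox, against 110.1 to 244 CPM in the WT libraries. For Sis, Slc5a1, Slc2a5 and Khk both CRISPR libraries thus lay above the 4 WT libraries, with +Dox the higher of the 2. Guca2a, which encodes guanylin, a relative of uroguanylin, was at 289.8 and 687 CPM, against 109.7 to 283 CPM in the WT libraries.

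Cells were also gated by the share of their UMIs in each marker list. The cutoffs, 1% for enterocyte, Paneth and goblet markers, 0.5% for stem cell genes and 0.2% for G2 and mitosis genes, were set after the distributions had been seen. Shares are given with exact binomial intervals for counting error only. The enterocyte gate held 22.5% (21.9 to 23.2) of -Dox cells and 38.2% (37.3 to 39.0) of +Dox cells. The Paneth gate held 6.94% (6.57 to 7.33) and 20.7% (19.9 to 21.4), and the goblet gate 8.68% (8.27 to 9.10) and 19.7% (19.0 to 20.4). These 3 gates held larger shares of +Dox cells. The Paneth and goblet gates overlapped, with 1032 cells (5.86%) in -Dox and 2098 (17.4%) in +Dox over both. All goblet-gated cells numbered 1527 and 2382, so most of them were also Paneth-gated. The goblet share therefore does not count goblet cells apart from Paneth cells. The stem cell gate held 19.7% (19.1 to 20.3) and 22.0% (21.3 to 22.7), and the G2 and mitosis gate 32.4% (31.7 to 33.1) and 21.9% (21.2 to 22.7). Across the WT libraries the enterocyte gate held 7.89% to 25.4%, the Paneth gate 6.54% to 16.8%, the goblet gate 9.44% to 18.1% and the G2 and mitosis gate 25.5% to 31.6% of cells. Cells between 1/2 of the cutoff and 2 times the cutoff made up 2.93% of -Dox and 10.2% of +Dox cells for the Paneth gate, and 14.2% and 10.5% for the enterocyte gate.

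Free RNA in droplets reaches all cells, and the median share of Paneth marker UMIs in cells under the Paneth cutoff was 0.0879% in -Dox and 0.225% in +Dox. For goblet markers it was 0.0616% and 0.0994%, and for enterocyte markers 0.175% and 0.167%. These medians lie below the 1% cutoffs and can also hold RNA made by the cells themselves. No separate estimate of free RNA was made, and its part in the shares was not tested. Sorting for GFP was done for +Dox only and can set such shares. With each cell thinned to 5000 UMIs, the shares were 21.3% and 37.2% for the enterocyte gate, 6.63% and 18.1% for the Paneth gate, 8.73% and 17.7% for the goblet gate and 34.8% and 23.2% for the G2 and mitosis gate. Cells over both the enterocyte gate and a secretory gate were 123 (0.699%) in -Dox and 665 (5.50%) in +Dox, with median depths of 13623 and 7241 UMIs. The doublet caller Scrublet marked 79 (64.2%) and 291 (43.8%) of them. Over all cells it marked 12.4% and 14.8%, and marked cells were kept.

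Because the libraries differed in these shares, levels were also summed within 3 classes of cells. Cells over the enterocyte gate only were 3844 in -Dox and 3947 in +Dox, cells over the Paneth or goblet gate only were 1596 and 2119, and cells under the 5 differentiation gates (enterocyte, Paneth, goblet, enteroendocrine and tuft) were 11896 and 5161. The cells inside a class were not alike in both libraries. The median share of UMIs in enterocyte markers was 3.22% in -Dox and 6.13% in +Dox among enterocyte-gated cells, and that in Paneth markers was 3.16% and 8.38% among Paneth- or goblet-gated cells. Their part in the differences within classes was not tested. Genes used for the gates were left out of the counts. The minimum of 10 CPM was applied within each class, so some genes were tested there through 1 library alone. Their number was not counted. By 1.5-fold, 240 of 7242 genes (3.31%) were higher and 151 (2.09%) lower among enterocyte-gated cells, 52 of 7692 (0.676%) and 92 (1.2%) among Paneth- or goblet-gated cells, and 77 of 7649 (1.01%) and 96 (1.26%) among cells under the gates. By 2-fold, 67 (0.925%) were higher and 18 (0.249%) lower among enterocyte-gated cells, 18 (0.234%) and 16 (0.208%) among Paneth- or goblet-gated cells, and 19 (0.248%) and 16 (0.209%) among cells under the gates. The excess of higher over lower genes seen over all cells was thus smaller among enterocyte-gated cells, and by 1.5-fold it was absent from the other 2 classes. These are the cells in which the named genes were chosen, so the class values are not independent of the choice.

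The lower genes kept their direction in each class. Of 15 tested AP-1 and immediate early genes, 8, 7 and 7 were lower by 1.5-fold in enterocyte-gated, Paneth- or goblet-gated and ungated cells, with median log2 ratios of -0.62, -0.58 and -0.56. Fos was at 319 CPM in -Dox and 77.6 CPM in +Dox among enterocyte-gated cells, at 603 and 241 CPM among Paneth- or goblet-gated cells and at 426 and 163 CPM among cells under the gates. All 15 lowest genes had negative log2 ratios in each class, with medians of -1.19, -1.02 and -0.92. Rbp7 was at 51.9 and 4.67 CPM, 22.8 and 3.46 CPM, and 56.0 and 12.0 CPM in the same order.

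The higher genes followed the classes less evenly. Of the 15 highest, 9 were not used for the gates, and their median log2 ratios were 2.01 in enterocyte-gated, 0.75 in Paneth- or goblet-gated and 1.02 in ungated cells. Guca2b was at 488 and 2040 CPM (4.18-fold) among enterocyte-gated cells, at 488 and 548 CPM (1.12-fold) among Paneth- or goblet-gated cells and at 18.9 and 65.0 CPM (3.43-fold) among cells under the gates. Apoc2 was at 95.5 and 486 CPM (5.08-fold), 20.5 and 41.2 CPM (2.01-fold), and 3.28 and 15.0 CPM (4.57-fold) in the same order. Levels of both genes were far lower among cells under the gates than among enterocyte-gated cells. The part of free RNA, or of cells just below a cutoff, in those low levels was not tested. The ratios of both genes were smallest among Paneth- or goblet-gated cells, and nearer to each other in the other 2 classes. Clu had its larger ratios elsewhere, at 0.275 and 2.83 CPM (10.3-fold) among enterocyte-gated cells, 1.69 and 46.5 CPM (27.5-fold, 19.3 to 40.5) among Paneth- or goblet-gated cells and 0.419 and 16.5 CPM (39.3-fold, 30.9 to 50.8) among cells under the gates. Cell cycle lists were nearer to the class medians of all genes (-0.05, -0.09 and -0.05) in the last 2 classes. G2 and mitosis genes had medians of -0.48, -0.19 and -0.12, and S phase genes -0.42, -0.09 and -0.08.

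Metabolic and stress lists also differed between the classes. Of the glycolytic genes, 3 of 16 were lower by 1.5-fold among enterocyte-gated cells (median log2 ratio -0.30), 10 of 16 among Paneth- or goblet-gated cells (-0.67) and 11 of 14 among cells under the gates (-0.70), and 0 were higher in each class. Hypoxia genes were lower for 3 of 15 (-0.34), 8 of 14 (-0.67) and 9 of 14 (-0.67), with 0 higher. The lists share members such as Pdk1, and their medians over all cells, -0.30 and -0.28, were nearer to 0 than in the last 2 classes. Ndrg1, a hypoxia-induced differentiation gene, had a log2 ratio of 0.34 over all cells, but was at 726 and 802 CPM among enterocyte-gated cells, 249.9 and 149.9 CPM among Paneth- or goblet-gated cells, and 136 and 60.7 CPM among cells under the gates (2.24-fold lower, 2.18 to 2.30). Slc16a3, the lactate exporter, was at 132 and 118 CPM, 58.3 and 22.4 CPM, and 54.5 and 17.1 CPM in the same order, the last 3.19-fold lower (3.03 to 3.35). Pdk1 was at 107 and 69.5 CPM, 65.1 and 38.5 CPM, and 79.5 and 45.6 CPM.

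ATF4 targets were higher by 1.5-fold for 0 of 20 among enterocyte-gated cells (median -0.11), 3 of 19 among Paneth- or goblet-gated cells (0.26) and 8 of 19 among cells under the gates (0.56). Atf5 was at 32.7 CPM in -Dox and 63.1 CPM in +Dox in the last of these. Cholesterol genes were lower for 4, 3 and 7 of 23, with medians of -0.35, -0.45 and -0.55. Acat2 was at 81.5 and 46.2 CPM among enterocyte-gated cells and at 103 and 63.4 CPM among cells under the gates. Cytosolic ribosomal protein genes were lowest among enterocyte-gated cells, with 10 of 44 lower there (median -0.52) and 0 of 44 past 1.5-fold in each of the other classes (-0.06 and 0.10). Regenerative genes were higher for 6 of 9, 7 of 11 and 7 of 11 and lower for 1, 1 and 0, with medians of 0.83, 1.30 and 1.37. Clu passed the minimum in the last 2 classes through its +Dox level alone, so its direction was set there. How many other members did so was not counted. Xenobiotic metabolism genes were higher for 6 and lower for 2 of 28 among enterocyte-gated cells (median 0.04), higher for 1 and lower for 7 of 24 among Paneth- or goblet-gated cells (-0.26), and higher for 1 and lower for 8 of 23 among cells under the gates (-0.38). Stem cell genes were lower for 2 of 10 among enterocyte-gated cells (-0.11), higher for 1 of 13 among Paneth- or goblet-gated cells (0.14) and higher for 1 of 15 among cells under the gates (0.32). The differences between classes were not tested.

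**Figure D4:**
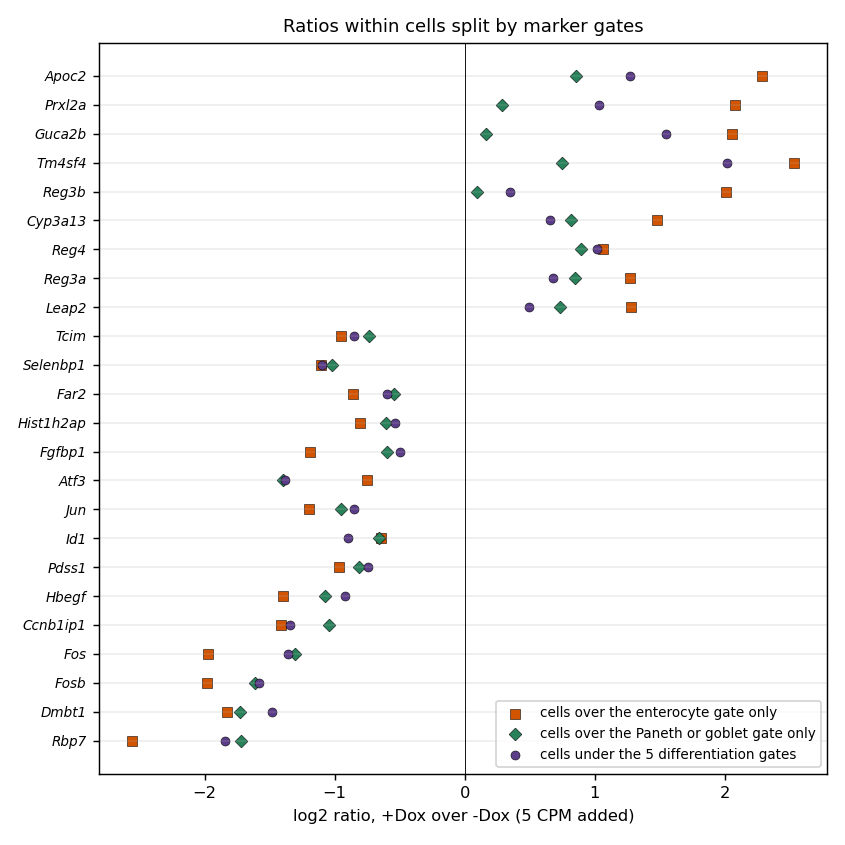
Log2 ratio of +Dox to -Dox (5 CPM added) for named genes within cells over the enterocyte gate only, cells over the Paneth or goblet gate only and cells under the 5 differentiation gates, with 1 point per gene and class. Fos and Rbp7 lie below 0 in the 3 classes, while Guca2b and Apoc2 have their largest ratios among enterocyte-gated cells.

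Finally, the comparison was set beside that of EIPA in WT organoids, which lowers NHE1 activity by a different route and shares no library with it. Of the 308 genes higher in +Dox by 1.5-fold, 239 (77.6%) had both +EIPA libraries above both -EIPA libraries, and 2 had both below. These 239 were 26.5% of the 902 genes (11.5% of all tested) that EIPA separated upward in this way. Of the 65 genes lower in +Dox, 47 (72.3%) had both +EIPA libraries below both -EIPA libraries and 3 had both above, beside 3481 of all tested genes (44.3%) below, of which these 47 were 1.35%. Higher genes thus stood further from the share over all genes than lower genes did. The median log2 ratio of the 308 genes was 0.86 with Dox and 0.43 and 0.69 in the 2 EIPA replicates, and that of the 65 genes was -0.70 with Dox and -0.29 and -0.30 with EIPA. Across the 7852 genes the log2 ratio with Dox correlated with that of EIPA replicate 1 with Pearson's r = 0.784 (Spearman's rho 0.72) and of replicate 2 with r = 0.753 (rho 0.648). With the difference between the 2 WT -EIPA libraries it correlated with r = -0.0658 (rho -0.0391). Genes are not independent replicates, and no p was computed.

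**Figure D5:**
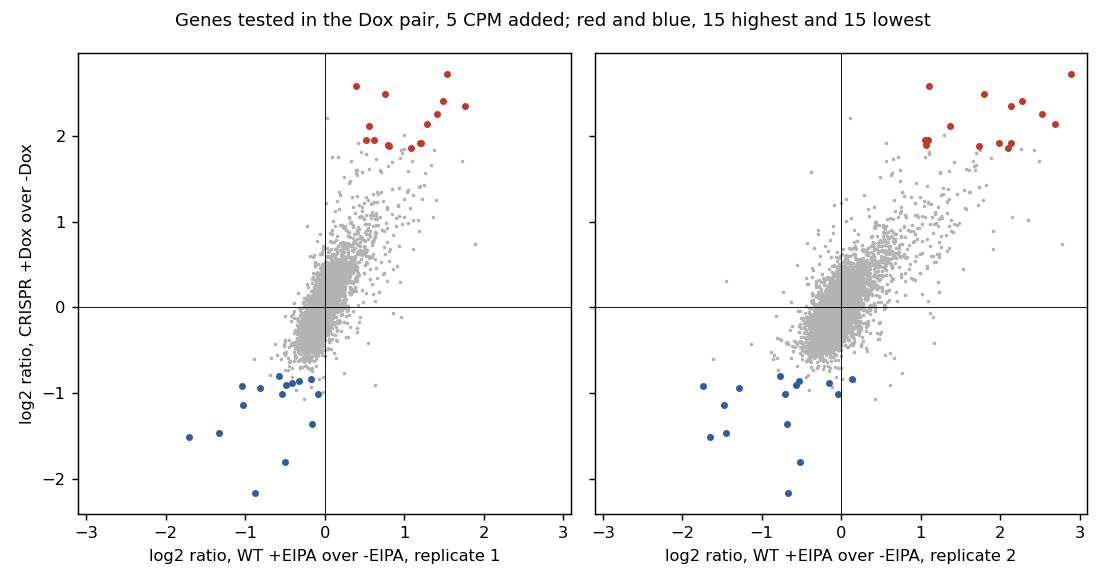
Log2 ratio of +Dox to -Dox (y axis) against the log2 ratio of +EIPA to -EIPA in WT organoids (x axis) for the 7852 tested genes, 5 CPM added, with 1 panel per EIPA replicate. The 15 highest (red) and 15 lowest (blue) genes are marked, and genes that are higher on one axis tend to be higher on the other, with r = 0.784 for replicate 1 and r = 0.753 for replicate 2 across genes.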

How the data were processed

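Organoid cells of 6 libraries were profiled by 3′ single-cell RNA sequencing (10x Genomics). The authors aligned reads to mm10 with Cell Ranger 6.1.2 and deposited raw UMI counts per gene and barcode, without normalization or limits on mitochondrial UMIs. Barcodes needed 1000 or more genes and a mitochondrial share under 20%, because the limits of the study are not given in the sources used here. This kept 17598 of 22053 barcodes in -Dox and 12083 of 14319 in +Dox. Counts were summed per library and divided by the total of the kept cells (CPM). With 1 library a side no gene was tested statistically. Ratios carry 95% Clopper-Pearson intervals for counting error only, and "tested" means at least 10 CPM in either library. A gene was called past 2-fold or 1.5-fold with 5 CPM added to both sides. The interval procedure was tested on simulated counts drawn from the counting model that it assumes. That checks the calculation and not the spread between cells or cultures.

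Named genes were the 15 highest and 15 lowest log2 ratios among genes with at least 20 CPM that are not model names, and, per list, the most abundant member and those with the highest and lowest ratio. Values of the targeted gene are not reported here. Other genes, such as those behind a count of 5 or fewer, were named after their values were seen. The members and the 42 gene lists were chosen with earlier results of these data known. Scaling factors came from edgeR 4.0.16 (TMM) and DESeq2 1.42.0 in R 4.3.3 as alternatives, and other steps used Python 3.11.15, numpy 2.4.6, scipy 1.17.1, pandas 2.3.3 and scanpy 1.11.5 (Scrublet). Gene positions were from GENCODE for mm10, and promoter windows from RefSeq GRCm38.p6.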

Additional observations from a re-analysis of the deposited data

How the results depend on the processing

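No paired analysis was possible because each side has 1 library and no test was made, and for the same reason no replicate could be left out. With 1 CPM added in place of 5, 18 genes were lower by 2-fold and 113 lower by 1.5-fold. With a minimum of 50 CPM, 66 were higher by 2-fold, 139 higher by 1.5-fold and 43 lower by 1.5-fold. The minimum CPM was varied for these counts only, and not for single genes or list medians. Of the 59 named genes past 1.5-fold, 55 were past it under every other alternative. The exceptions were Hmmr, Pdk1, Atf5 and mt-Atp6, and the counts of their lists move with them. Of the 8 lists with a median past 1.5-fold all 8 were past it under every alternative other than the minimum CPM. Some of these lists rest in part on members tested through their +Dox level alone, such as 6 of 12 regenerative genes. Of the 119 named genes 114 kept their sign in every such setting, and Ghrl, Mrpl34, Rps20 and Sox4 were among the exceptions.

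Shares of gated cells moved with the cutoff, the cells kept and the depth, and are given for -Dox and then +Dox. At 1/2 of the cutoff they were 30.1% and 42.7% for enterocyte, 8.68% and 27.9% for Paneth, 10.6% and 23.0% for goblet, 36.5% and 36.8% for stem cell and 45.4% and 30.6% for G2 and mitosis gates. At 2 times the cutoff they were 15.9% and 32.2%, 5.76% and 17.7%, 6.86% and 14.5%, 5.69% and 6.60%, and 17.2% and 11.7% in the same order. Under stricter limits, 2000 genes or more and a mitochondrial share under 10%, they were 20.4% and 33.1%, 5.98% and 18.0%, 8.01% and 17.7%, 21.2% and 24.3%, and 34.6% and 24.0%. With every cell thinned to 5000 UMIs, an alternative chosen after seeing the data that left out 1751 and 690 shallower cells, they were 21.3% and 37.2%, 6.63% and 18.1%, 8.73% and 17.7%, 21.6% and 23.4%, and 34.8% and 23.2%. Without the cells over both the enterocyte and a secretory gate, also chosen after seeing the data, 110 genes were higher and 9 lower by 2-fold. Counting intervals are narrow at this depth and do not cover the spread between cultures, which 1 library a side leaves unmeasured.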
